A study of Mus musculus with 6 samples.

Results

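The genes described here are the TAM receptors Axl, Mertk and Tyro3, the bridging ligands Gas6, Pros1 and Mfge8, and the efferocytosis and scavenger receptors Stab1, Timd4, Cd36 and Msr1. They were taken by gene name from the count table, and all 10 were found among its 49315 genes. The samples were lung cell suspensions of C57BL/6 mice given either sterile saline (sham-treated) or bleomycin sulfate (BLM-treated) through the oropharynx, with lungs harvested 21 days later. In each treatment RNA was sequenced from unsorted cells, from cells sorted for surface Lamp1 (Lamp1-enriched) and from cells sorted as lacking it (Lamp1-depleted), giving 6 libraries, 1 per condition. The study's methods describe male C57BL/6J mice and a pool of 2 to 3 lungs of 1 group per tube, and their age was not given in the sources used here. The group was chosen by the BLM-over-sham counts of unsorted cells, in which Axl was higher after BLM. The BLM-over-sham values of unsorted cells below, and the levels of unsorted BLM cells over the sorted fractions, are therefore a description.

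Efferocytosis is the uptake of dying cells by phagocytes. Dying cells expose phosphatidylserine, which is recognized either directly, as by the receptor Timd4, or through bridging proteins. Gas6 and Pros1 bind phosphatidylserine at one end and the tyrosine kinases Axl, Mertk and Tyro3 at the other, while Mfge8 links it to integrins. In lung, alveolar and tissue macrophages are the best known efferocytes, and endothelial cells, fibroblasts and platelets also carry some of these proteins.

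The stretch before the start of transcription is shown for the TAM receptor and the bridging ligand with the largest BLM-over-sham ratios in unsorted cells, Axl and Mfge8, both on the minus strand of chromosome 7. The sequences are the 250 bases before the RefSeq start (GRCm38.p6), at chr7:25788734-25788983 for Axl and chr7:79149061-79149310 for Mfge8, read 5′ to 3′. Capitals mark matches, on either strand, to the GC box GGGCGG and to the ETS core GAGGAA, so that a match on the opposite strand appears as the reverse complement.
Axl: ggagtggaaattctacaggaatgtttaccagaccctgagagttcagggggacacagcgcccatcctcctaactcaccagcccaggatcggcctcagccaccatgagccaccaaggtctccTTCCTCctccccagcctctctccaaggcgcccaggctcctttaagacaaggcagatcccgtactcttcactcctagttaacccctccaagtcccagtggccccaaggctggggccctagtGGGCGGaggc
Mfge8: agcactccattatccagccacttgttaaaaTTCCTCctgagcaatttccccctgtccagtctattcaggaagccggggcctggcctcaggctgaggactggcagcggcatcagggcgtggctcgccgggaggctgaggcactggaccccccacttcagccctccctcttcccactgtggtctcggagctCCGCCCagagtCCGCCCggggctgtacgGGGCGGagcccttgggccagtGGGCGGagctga
The Axl stretch held 1 GC box and 1 ETS core, and the Mfge8 stretch held 4 GC boxes and 1 ETS core. Among 32851 promoter windows of the same length, 32.7% held a GC box and 23.3% an ETS core. Of the other genes, Mertk and Tyro3 held 3 GC boxes each, Gas6 held 4, Pros1 held 5 and Cd36 held 2, while Stab1 held 1 ETS core. No AP-1 element (TGANTCA, in 6.75% of windows) and no TATA box (TATAAA, in 12.4%) was matched in the 9 stretches found, and no entry was found for Msr1. GC content ran from 43.2% for Cd36 to 73.2% for Tyro3. A match is a string of letters and was not tested as a binding site.

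Total counted reads ran from 30236120 to 52918696 per library. The noncoding gene Gm26917 took 38.4% of the reads of the BLM Lamp1-depleted library and at most 7.10% of the others, so levels below are CPM, counts relative to library size, after TMM scaling, which estimates that size from the bulk of genes. Lamp1-depleted cells were high in T cell and B cell markers, with all 4 of each list at least 2-fold lower in Lamp1-enriched cells in both treatments. Each ratio carries a 95% interval that covers counting error only. With 1 library per condition no spread between mice is known, and no BLM-over-sham ratio was tested.

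Axl (ENSMUSG00000002602, chr7:25757273-25788705, minus strand) encodes the TAM receptor that binds Gas6 alone among the bridging ligands. It was at 104 CPM in unsorted, 23.6 in Lamp1-depleted and 54.7 in Lamp1-enriched cells of sham-treated mice, and at 851, 93.5 and 111 CPM in the same order in BLM-treated mice. The unsorted BLM library stood apart from the other 5, and each pair of neighbours in the order of the 6 levels had separate counting intervals. Between BLM and sham, the log2 ratio was 3.03 (2.99 to 3.07) in unsorted cells, 1.99 (1.88 to 2.10) in Lamp1-depleted cells and 1.02 (0.95 to 1.09) in Lamp1-enriched cells. Axl was thus higher after BLM in all 3 preparations, although its Lamp1-enriched ratio lay at the 2-fold threshold.

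Mertk (ENSMUSG00000014361, chr2:128698956-128802894, plus strand) is the TAM receptor long used as a marker of tissue macrophages. Its levels were 103 CPM unsorted, 18.3 Lamp1-depleted and 114 Lamp1-enriched in sham-treated mice, and 213, 18.6 and 79.4 CPM in BLM-treated mice. The 2 Lamp1-depleted libraries did not differ beyond counting error with TMM (log2 ratio 0.02), whereas total counts gave -0.70. Mertk was 2.07-fold higher after BLM in unsorted cells, with a log2 ratio of 1.05 whose interval ran from the 2-fold threshold to 1.10, and its ratio was -0.53 (-0.59 to -0.47) in Lamp1-enriched cells. Tyro3 (ENSMUSG00000027298, chr2:119797733-119818104, plus strand), the TAM receptor best known from neurons, was counted with 28 to 56 reads per library. Its levels ran from 0.614 to 1.75 CPM, and the counting intervals of neighbours in the order of the 6 levels overlapped. By the interval of their ratio, however, BLM unsorted and BLM Lamp1-enriched cells were apart. The BLM-over-sham log2 ratio of Tyro3 was 1.19 (0.54 to 1.89) unsorted, 1.49 (0.76 to 2.27) Lamp1-depleted and 0.28 (-0.40 to 0.98) Lamp1-enriched.

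The level of Axl relative to Mertk could be read within each library, where scaling between libraries has no part. Per kilobase of exon, the Axl-to-Mertk ratio was 0.874 (0.840 to 0.909) in unsorted, 1.11 (1.01 to 1.22) in Lamp1-depleted and 0.412 (0.393 to 0.432) in Lamp1-enriched cells of sham-treated mice. After BLM the same ratio was 3.44 (3.36 to 3.52), 4.33 (3.89 to 4.84) and 1.20 (1.16 to 1.25). Each BLM library lay above its sham counterpart, and Lamp1-enriched cells had the lowest ratio within both treatments.

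**Figure D1:**
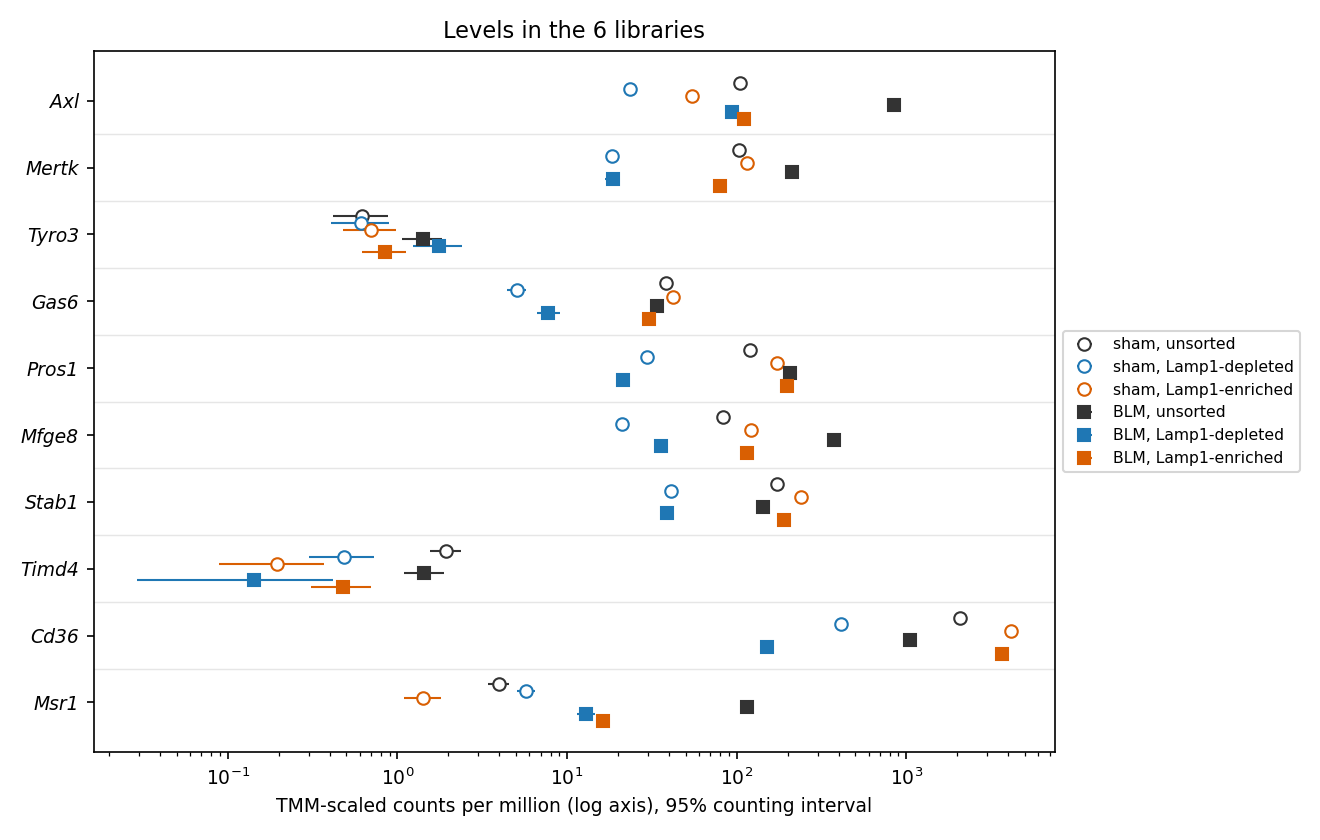
TMM-scaled CPM (log axis) of the 10 genes in the 6 libraries, with open circles for sham, filled squares for BLM, colours for the cell preparation and bars for the 95% counting interval. Axl, Mfge8 and Msr1 in unsorted BLM cells (851, 375 and 116 CPM) lie to the right of their other libraries.

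Gas6 (ENSMUSG00000031451, chr8:13465374-13494490, minus strand), a vitamin K dependent ligand of all TAM receptors, did not follow Axl. It was at 38.6 CPM unsorted, 5.07 Lamp1-depleted and 42.1 Lamp1-enriched in sham-treated mice, and at 33.7, 7.76 and 30.5 CPM in BLM-treated mice. Both Lamp1-depleted libraries were low, and the other 4 lay close together. The BLM-over-sham log2 ratios were -0.19 (-0.30 to -0.09) unsorted, -0.47 (-0.56 to -0.37) Lamp1-enriched and 0.61 (0.32 to 0.91) Lamp1-depleted, where total counts in place of TMM gave -0.10. Gas6 shares 34 exon bases with Tmem255b on the opposite strand, a gene with at most 199 reads in any library, and whether counting used strand was not given in the sources used here.

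Pros1 (ENSMUSG00000022912, chr16:62854307-62929346, plus strand) encodes protein S, an anticoagulant cofactor and ligand of Mertk and Tyro3. It was at 120 CPM unsorted, 29.7 Lamp1-depleted and 174 Lamp1-enriched in sham-treated mice, and at 207, 21.3 and 198 CPM in BLM-treated mice. Lamp1-depleted cells were lowest in both treatments. Unsorted cells had a BLM-over-sham log2 ratio of 0.79 (0.74 to 0.84), below the 2-fold threshold. Pros1 exceeded Gas6 per kilobase in each of the 6 libraries, by 1.94-fold in sham unsorted cells, 3.83-fold in BLM unsorted cells and between 1.71-fold and 4.05-fold in the sorted ones.

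Mfge8 (ENSMUSG00000030605, chr7:79133768-79149060, minus strand), the secreted bridge to integrins, was the ligand with the largest difference in unsorted cells. Its levels were 83.7 CPM unsorted, 21.1 Lamp1-depleted and 122 Lamp1-enriched in sham-treated mice, and 375, 36.0 and 115 CPM in BLM-treated mice. The unsorted BLM library was the highest, and the Lamp1-enriched pair were near each other. The BLM-over-sham log2 ratio was 2.17 (2.12 to 2.22) unsorted, 0.77 (0.63 to 0.91) Lamp1-depleted and -0.08 (-0.13 to -0.03) Lamp1-enriched. Total counts in place of TMM moved the Lamp1-depleted ratios of all genes by -0.72, close to the size of the Mfge8 ratio there. Within libraries, Mfge8 per kilobase was 0.609 to 0.620 times Pros1 in the 3 sham libraries, and 1.58, 1.47 and 0.507 times Pros1 in unsorted, Lamp1-depleted and Lamp1-enriched BLM cells.

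**Figure D2:**
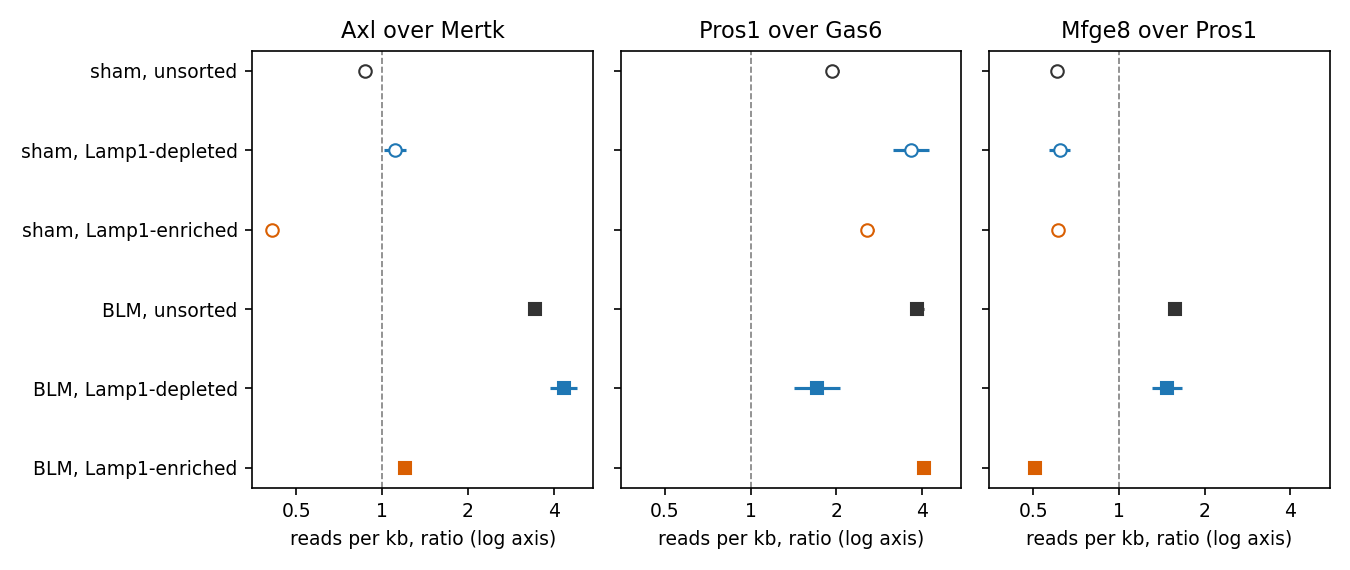
Ratios of reads per kilobase of exon between pairs of genes in the same library (log axis), with the libraries on the vertical axis and bars for the 95% counting interval. Axl over Mertk is higher in each BLM library than in its sham counterpart (3.44 against 0.874 in unsorted cells), while Mfge8 over Pros1 is near 0.61 in the 3 sham libraries.

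Stab1 (ENSMUSG00000042286, chr14:31139013-31168641, minus strand) encodes stabilin-1, a scavenger receptor of macrophages and some endothelium that also binds phosphatidylserine. It was at 173 CPM unsorted, 40.8 Lamp1-depleted and 238 Lamp1-enriched in sham-treated mice, and at 144, 39.0 and 191 CPM in BLM-treated mice. With TMM the treatments lay close in each preparation, with BLM-over-sham log2 ratios of -0.27, -0.07 and -0.32. Total counts moved the Lamp1-depleted ratios of all genes by -0.72. Stab1 shares 112 exon bases with Nt5dc2 on the opposite strand, which had at most 274 reads.

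Timd4 (ENSMUSG00000055546, chr11:46810800-46844332, plus strand), a direct phosphatidylserine receptor of resident macrophages, had few reads. It was counted with 94 reads unsorted, 22 Lamp1-depleted and 9 Lamp1-enriched in sham-treated mice, and with 57, 3 and 26 reads in BLM-treated mice. Unsorted cells were highest in both treatments, and did not differ between treatments beyond counting error (log2 ratio -0.42, from -0.92 to 0.07). Its ratios in sorted cells rest on at most 26 reads and are imprecise, at 1.24 (0.15 to 2.56) Lamp1-enriched and -1.66 (-4.15 to -0.03) Lamp1-depleted.

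Cd36 (ENSMUSG00000002944, chr5:17781690-17888801, minus strand), a receptor for oxidized lipids, fatty acids and thrombospondin, was the most abundant of the 10 per kilobase in every library. It was at 2083 CPM unsorted, 413 Lamp1-depleted and 4130 Lamp1-enriched in sham-treated mice, and at 1059, 151 and 3646 CPM in BLM-treated mice. Lamp1-enriched cells were the highest in each treatment. The BLM-over-sham log2 ratio was -0.98 (-0.99 to -0.96) unsorted, just short of 2-fold, -1.46 (-1.51 to -1.40) Lamp1-depleted and -0.18 (-0.19 to -0.17) Lamp1-enriched.

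Msr1 (ENSMUSG00000025044, chr8:39581685-39642673, minus strand), the class A scavenger receptor of macrophages, showed the largest BLM-over-sham ratio of the 10 genes in unsorted and in Lamp1-enriched cells, though not in Lamp1-depleted cells, where Axl and Tyro3 were above it. It was at 3.95 CPM unsorted, 5.77 Lamp1-depleted and 1.41 Lamp1-enriched in sham-treated mice, and at 116, 12.9 and 16.3 CPM in BLM-treated mice. All 3 BLM libraries were above all 3 sham libraries. The log2 ratio was 4.87 (4.66 to 5.09) unsorted, which is 29.2-fold, 3.52 (3.16 to 3.91) Lamp1-enriched and 1.16 (0.91 to 1.41) Lamp1-depleted. The 2 receptors Msr1 and Cd36 thus lay on opposite sides of 0 in each preparation.

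Counted over the 10 genes, Axl, Mertk, Tyro3, Mfge8 and Msr1 were at least 2-fold higher in unsorted BLM cells and none was 2-fold lower, beside 13.9% higher and 16.0% lower of 22772 genes with enough reads (at least 10 in the higher library). Their median log2 ratio was 0.92 and that of all genes -0.07. Because this contrast entered the choice, nothing is read from that count. With total counts in place of TMM, Mertk and Tyro3 fell under the threshold and Cd36 passed it as lower. In Lamp1-enriched cells 3 were higher (Axl, Timd4 and Msr1) and none lower, beside 10.2% higher and 7.86% lower of all genes, with medians of 0.06 for the 10 and -0.00 for all. In Lamp1-depleted cells 3 were higher (Axl, Tyro3 and Msr1) and 2 lower (Timd4 and Cd36), beside 13.7% and 22.3%, with medians of 0.32 and -0.20. With total counts, Axl alone was called higher in Lamp1-depleted cells, and Pros1, Timd4 and Cd36 were lower, beside 6.79% higher and 46.8% lower of all genes. Axl and Msr1 were the genes of the 10 called higher in each of the 3 preparations with TMM scaling, and Axl alone with total counts.

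**Figure D3:**
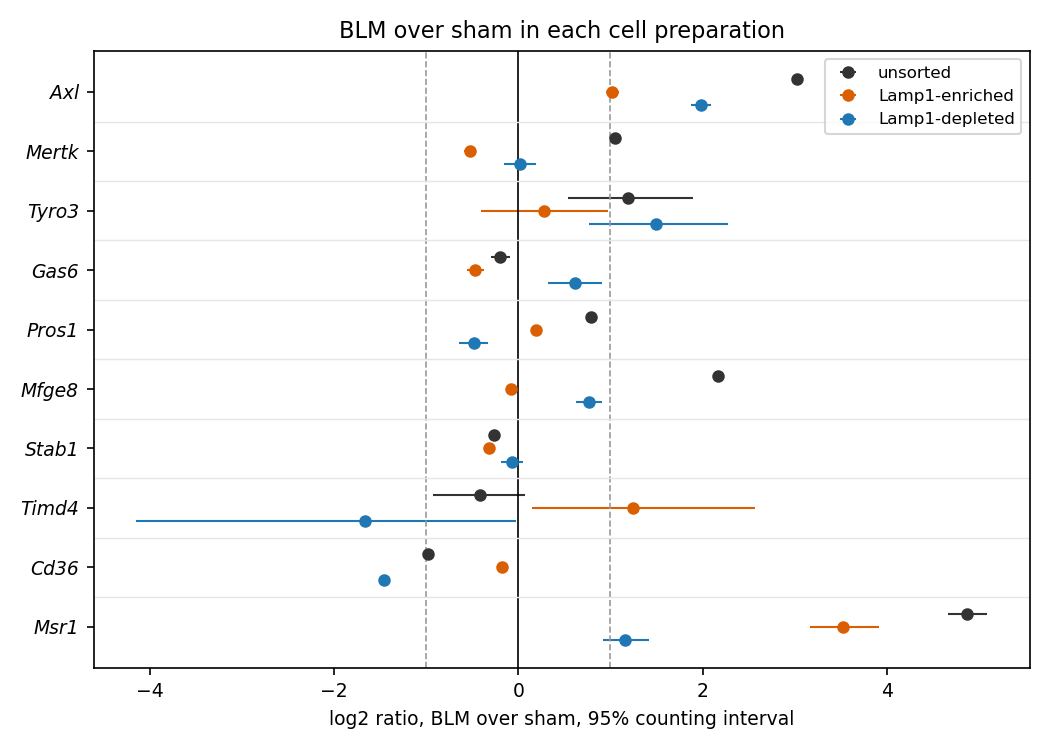
Log2 ratio of BLM over sham for each gene in unsorted, Lamp1-enriched and Lamp1-depleted cells, with bars for the 95% counting interval and dashed lines at 2-fold. Axl (3.03, 1.02 and 1.99) and Msr1 (4.87, 3.52 and 1.16) lie at or right of the upper line in all 3 preparations, while Cd36 lies left of 0.

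Levels of cell type markers differed along with these values. In unsorted cells, 7 of 8 macrophage and monocyte markers and 6 of 6 markers of scar-associated macrophages were at least 2-fold higher after BLM, and none was lower. Their summed levels were 17921 CPM against 2110 CPM and 4601 CPM against 89.1 CPM in BLM and sham unsorted cells, with no marker at 0. The alveolar macrophage list was mixed, with 5 of 8 markers higher and 2 lower, and sums of 2660 CPM after BLM and 465 CPM in sham. Of 7 endothelial markers 3 were lower and none higher, with sums of 2809 CPM after BLM and 4717 CPM in sham. Platelet markers were lower for 6 of 6 (49.2 CPM against 284 CPM) and alveolar type 2 markers for 5 of 6 (354 CPM against 1417 CPM). In sorted cells all 6 scar-associated markers were again higher after BLM, with sums of 619 CPM against 72.4 CPM enriched and 344 CPM against 18.8 CPM depleted. All 4 neutrophil markers were higher in Lamp1-depleted BLM cells (146 CPM against 17.8 CPM). In bulk RNA, fewer cells of a type and less RNA per cell cannot be told apart, and the part of composition in the ratios of the 10 genes was not tested.

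Set against the macrophage and monocyte markers, Axl had 4.95 reads per 100 marker reads in sham unsorted and 4.75 in BLM unsorted cells. That sum is dominated by Lyz2, the lysozyme gene that neutrophils and type 2 cells also express. Leaving out Lyz2, a choice made after the values were seen, Axl had 91.2 reads per 100 marker reads in sham and 125 in BLM unsorted cells. On the same basis Msr1 had 3.46 and 17.1, Mfge8 had 73.2 and 55.3 and Mertk had 90.0 and 31.4. Against the markers of scar-associated macrophages, Axl had 117 reads per 100 marker reads in sham and 18.5 in BLM unsorted cells, and Msr1 had 4.44 and 2.52. Most of that sum is Spp1, at 56.9 of 89.1 CPM in sham and 3504 of 4601 CPM in BLM unsorted cells. Against the alveolar macrophage markers, Axl had 22.4 in sham and 32.0 in BLM unsorted cells, and Msr1 had 0.85 and 4.35. The order of BLM and sham for Axl and Msr1 thus turned with the denominator, while Mfge8 and Mertk were lower in BLM against each of these macrophage lists.

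Sorting by surface Lamp1 separated 6 of the 10 genes. Across the 4 sorted libraries, edgeR's quasi-likelihood test with treatment as a covariate and Benjamini-Hochberg adjustment called Cd36, Pros1, Gas6, Stab1, Mertk and Mfge8 higher in Lamp1-enriched cells, and none lower. Of 20593 genes tested, 21.5% were called higher and 19.2% lower. The log2 fold changes were 3.86 for Cd36 (edgeR adjusted p = 1.80e-11), 2.79 for Pros1 (1.06e-12), 2.42 for Gas6 (2.08e-09), 2.33 for Stab1 (3.13e-09), 2.27 for Mertk (2.14e-09) and 2.01 for Mfge8 (1.29e-07). The values for the others were 0.63 for Axl (adjusted p = 0.131), -0.90 for Msr1 (0.0868), -0.54 for Tyro3 (0.620) and -0.01 for Timd4 (0.994). The fit had 1 residual degree of freedom and treated the 2 treatments as the only repeats of the sort, so its p-values rest on dispersions pooled across genes. Sorted libraries of 1 treatment may also share the same pooled lungs.

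Within treatments the sort ratio of Axl was 1.21 (1.11 to 1.32) in sham and 0.25 (0.17 to 0.32) in BLM, and that of Msr1 was -2.02 (-2.44 to -1.63) and 0.33 (0.14 to 0.54). Both genes were nearer in level between the fractions after BLM. So were Gas6 (3.05 to 1.97), Mfge8 (2.52 to 1.68), Mertk (2.64 to 2.09) and Stab1 (2.55 to 2.30). Pros1 moved the other way, from 2.55 (2.47 to 2.63) to 3.22 (3.08 to 3.36), as did Cd36, from 3.32 to 4.60. In sham 7 of the 10 were at least 2-fold higher and 2 lower in Lamp1-enriched cells, beside 27.5% higher and 25.2% lower of all genes, with medians of 2.53 and -0.01. In BLM 7 were higher and 1 lower, beside 34.3% and 22.6%, with medians of 1.82 and 0.29. These differences between treatments were not tested. Their sizes depend on scaling, and for Mertk and Stab1 their direction does too. With total counts in place of TMM, the sort ratios of all genes moved by -0.17 in sham and by 0.56 in BLM. Mertk and Stab1 were then further apart between the fractions in BLM than in sham.

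**Figure D4:**
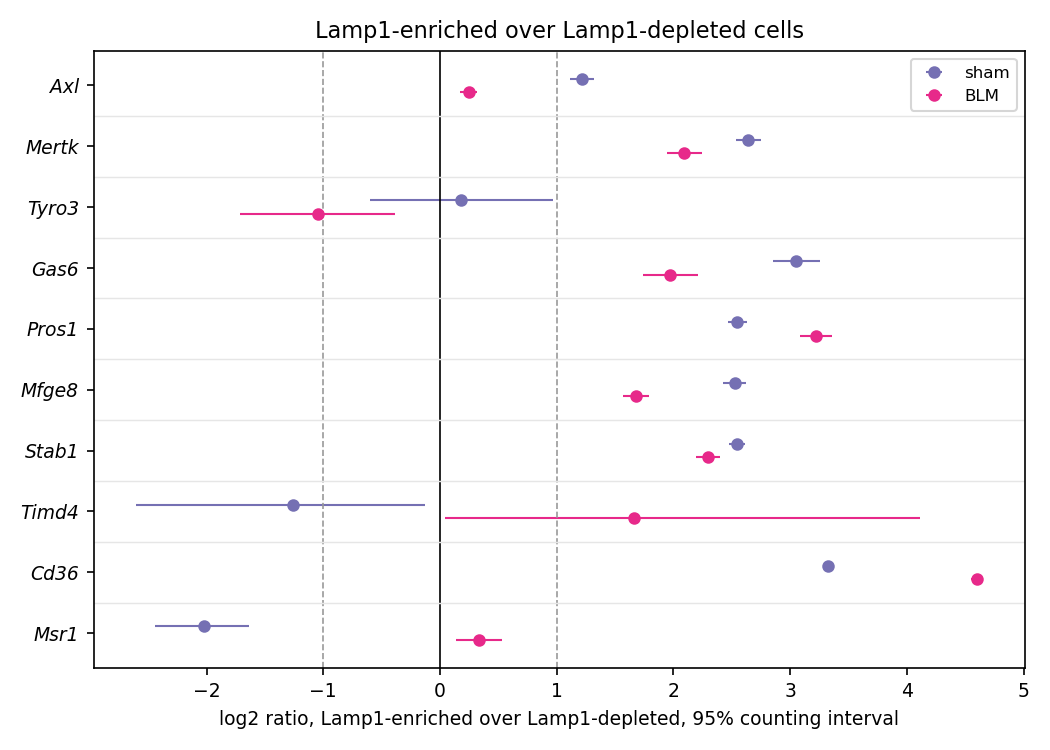
Log2 ratio of Lamp1-enriched over Lamp1-depleted cells for each gene in sham and BLM, with bars for the 95% counting interval and dashed lines at 2-fold. Mertk, Gas6, Pros1, Mfge8, Stab1 and Cd36 lie right of the upper line in both treatments, and Axl moves from 1.21 in sham to 0.25 in BLM.

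The Lamp1-enriched fraction was also high in markers of endothelium and platelets. All 7 endothelial markers were at least 2-fold higher in it in both treatments, with sums of 7359 CPM enriched against 1124 CPM depleted in sham and 7260 against 812 CPM in BLM. All 6 platelet markers were higher too, with sums of 929 CPM against 37.1 CPM in sham and 132 against 12.0 CPM in BLM, where 1 platelet marker was at 0 in the depleted library. Of the macrophage and monocyte markers none was higher and 2 of 7 were lower in sham, and 3 of 8 were higher and 2 lower in BLM. Pericyte and smooth muscle markers were higher for 5 of 6 in sham and 6 of 6 in BLM, fibroblast markers for 5 of 7 and 6 of 7, and alveolar type 2 markers for 5 of 6 in both. What share of the 6 called genes came with these cells was not tested.

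The unsorted libraries were not simple averages of the sorted ones. In sham, Axl (104 CPM against 54.7 in the higher fraction) and Timd4 lay above both fractions and the other 8 genes lay between, while 25.7% of 23233 genes lay above both. In BLM, 7 of the 10 lay above both fractions (Axl, Mertk, Gas6, Pros1, Mfge8, Timd4 and Msr1), against 26.6% of 22641 genes. With total counts in place of TMM, Mertk, Tyro3 and Gas6 also lay above both fractions in sham, by log2 ratios of 0.052 to 0.099, and Tyro3 in BLM, by 0.20. By at least 2-fold over the higher fraction, Timd4 was the 1 gene in sham (7.23% of all genes) and Axl, Msr1, Mfge8, Timd4 and Mertk were the 5 in BLM (8.48%). In BLM the log2 ratios were 2.94 (2.90 to 2.98) for Axl, 2.83 (2.73 to 2.94) for Msr1, 1.70 (1.66 to 1.75) for Mfge8 and 1.43 (1.37 to 1.48) for Mertk, with a median of 0.79 over the 10 beside -0.47 over all genes. Because the unsorted BLM library entered the choice of the 10 genes, nothing is read from these BLM counts or their median. The summed macrophage and monocyte markers stood at 17921 CPM in unsorted BLM cells, against 2621 CPM Lamp1-depleted and 2306 CPM Lamp1-enriched, and alveolar macrophage markers at 2660 CPM against 221 and 304 CPM. In BLM, these summed markers thus took a smaller share of the counts in both sorted fractions than in unsorted cells. In sham, 0 of 7 macrophage and monocyte markers were at least 2-fold above the higher fraction and 1 was 2-fold below it. Of the alveolar macrophage markers 7 of 8 were 2-fold above it in sham. The part of macrophage markers in the ratios of the 10 genes was not tested.

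The wider efferocytosis machinery was read from 77 genes in 7 lists, of which 74 had enough reads in unsorted cells. Of these 33 were at least 2-fold higher after BLM and 5 lower, with a median log2 ratio of 0.81. Over all genes 13.9% were higher and 16.0% lower, with a median of -0.07. The lists were chosen with earlier results of these data known, and this contrast had entered the choice of the subject. The counts and medians of the lists are therefore a description, and nothing is read from their distance to all genes. The same holds for the lists in sorted cells below. Other bridging molecules had the highest median, 2.75, with 5 of 8 higher. They included the C1q chains, complement proteins that coat dying cells, at 5.25 for C1qa, 5.16 for C1qb and 5.16 for C1qc, while Edil3, another integrin bridge, was at -1.22. Other recognition receptors were higher for 8 of 12, with the lipopolysaccharide and apoptotic cell receptor Cd14 at 3.40, Cd300lf at 3.33 and Havcr2 (Tim-3) at 2.45, and the integrin chain Itgb3 at -1.12. Other scavenger receptors were higher for 7 of 12, with the macrophage receptors Marco at 3.65 and Cd68 at 3.46 and the oxidized lipoprotein receptor Olr1 at 3.09, and Scarf2 at -1.16.

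Downstream of uptake, genes of digestion and cholesterol export were higher for 8 of 11, with the lysosomal acid lipase Lipa at 2.79, the cholesterol exporter Abca1 at 2.37 and the mitochondrial carrier Ucp2 at 2.36. The engulfment and lipid scrambling list, which holds the Elmo, Dock and Rac genes of the actin machinery, had 0 of 12 higher and 1 lower, the adaptor Gulp1 at -1.78. Find-me and do-not-eat-me signals were higher for 4 of 11, among them Sirpa, the receptor of the do-not-eat-me signal Cd47, at 2.42, Sphk1 at 1.89 and the nucleotide receptor P2ry2 at 1.83, and lower for the chemokine Cx3cl1 at -1.54. Of 8 genes for processing and output of TAM receptors 1 was higher, Adam17, a sheddase, at 1.27. The list medians were 1.58 for recognition receptors, 1.19 for scavenger receptors, 1.80 for digestion, 0.70 for find-me and do-not-eat-me signals, -0.01 for engulfment and 0.07 for TAM processing.

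**Figure D5:**
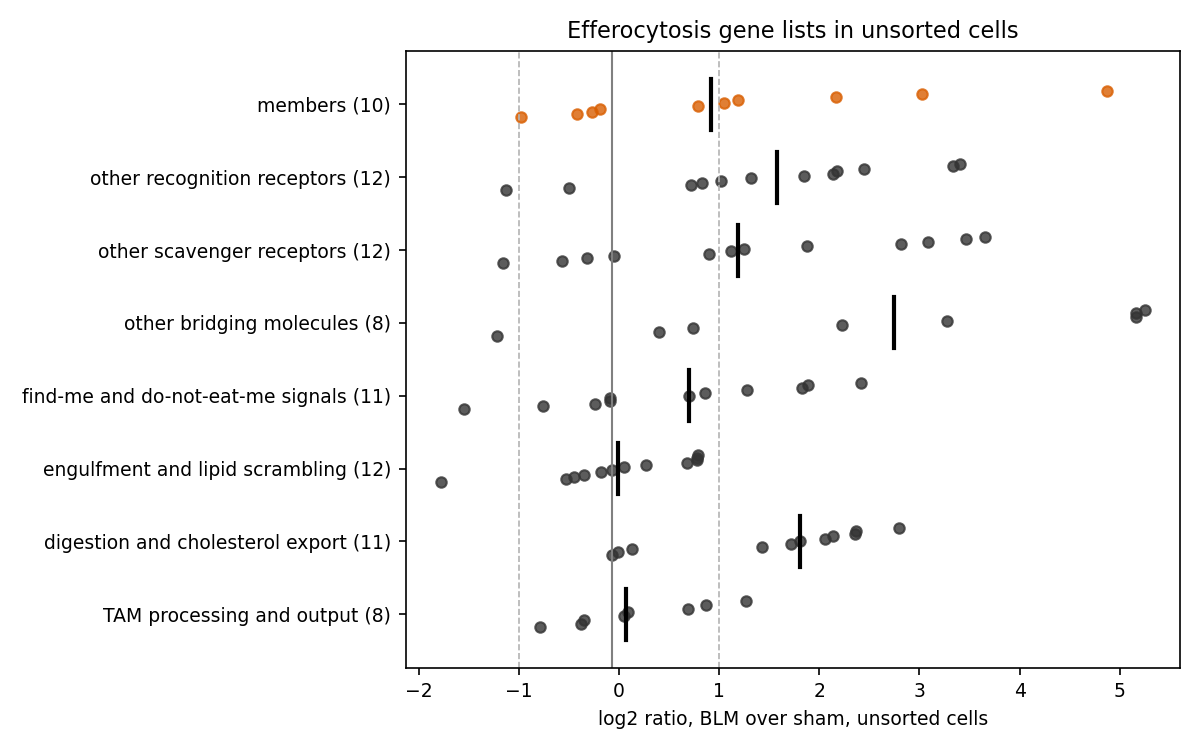
Log2 ratio of BLM over sham in unsorted cells for each gene with enough reads, by list, with the number of genes in brackets, a black bar at each list's median, a grey line at the median of all genes and dashed lines at 2-fold. The bridging molecules have the highest median (2.75) and the engulfment genes have a median of -0.01.

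In Lamp1-enriched cells 18 of 74 of these genes were higher after BLM and 3 lower, with a median of 0.12, beside 10.2% higher and 7.86% lower of all genes. C1qc was at 3.85, Cd300lf at 2.68, P2ry2 at 2.67 and Abca1 at 2.21, and the lower genes were Itgb3 at -1.80, the sterol-sensing receptor Nr1h3 at -1.55 and Cx3cl1 at -1.35. In Lamp1-depleted cells 15 of 73 were higher and 11 lower, with a median of 0.02, beside 13.7% and 22.3% of all genes. By the sort, edgeR's quasi-likelihood test called 28 of 73 higher and 14 lower in Lamp1-enriched cells, with a median of 0.43, beside 21.5% and 19.2% of all genes. Gulp1 (log2 fold change 3.21, edgeR adjusted p = 7.15e-16), Edil3 (2.96, 2.97e-14), Scarb1, a lipoprotein receptor (2.72, 5.35e-11), and Dock1 (2.51, 3.70e-10) were higher. The lysolipid receptor Gpr132 (-4.46, 3.30e-26) and the lectin Siglecg (-4.63, 2.55e-27) were lower. Cd14 was also lower in Lamp1-enriched cells (-1.54, 5.91e-05).

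The genes with the closest patterns were sought among 11401 genes by their distance in log2 level over the 6 libraries, after centring each gene. For Axl these were Rab3il1 (distance 0.455), Rnf180 (0.532) and Lrp12 (0.568), and for Mertk they began with Plau (0.298), the urokinase gene. The nearest to Mfge8 was Bst1 (0.385), to Msr1 the arginase gene Arg1 (0.759), to Pros1 the growth factor gene Hgf (0.374) and to Gas6 the guidance gene Sema3a (0.318). For Cd36 they were Cav1 (0.269), Ptprb (0.281) and Itga1 (0.304), of which Cav1, caveolin, and Ptprb are abundant in endothelium. Stab1 lay nearest to Serpinb6a (0.139), Tyro3 to Gm28661 (0.250) and Timd4, at its low counts, to Muc16 (0.990). These distances describe 6 libraries that differ in treatment and sort together.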

How the data were processed

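RNA was sequenced from 6 lung cell preparations, 1 library each, and the labels gave each sample's condition. The authors deposited unnormalized counts of reads for each gene. The submitters' processing notes name Trimmomatic 0.36, STAR 2.5.2b, featureCounts of Subread 1.5.2, DESeq2 and GRCm38, and the annotation release and strand setting are not given in the sources used here. All 6 count columns were mapped, and 0 were left over.

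TMM factors came from edgeR 4.0.16 under R 4.3.3. Log2 ratios of scaled counts, with a prior of 0.5 reads and at least 10 reads in the higher library, used pandas 2.3.3, scipy 1.17.1 and numpy 2.4.6 (Python 3.11.15), and matplotlib 3.10.9 drew the figures. Genes at least 2-fold apart were called. Intervals are 95% Clopper-Pearson intervals of the share of reads and cover counting error only. The sort was tested on the 4 sorted libraries by edgeR's quasi-likelihood test with treatment as a covariate, with a threshold of 0.05 on adjusted p, infinite prior degrees of freedom and a biological coefficient of variation of 0.316. Programs were tested on simulated data.

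Gene locations and merged exon lengths came from GENCODE M21, and promoter stretches from RefSeq on GRCm38.p6. Named genes were all 10 members, up to 3 other pathway genes per list and direction with the largest ratios among those called with at least 50 reads, and the 3 genes nearest in pattern to each member. Further pathway genes with values in the sort test were picked with their values in view. The members and all gene and marker lists were chosen with earlier results of these data known. Alternatives were DESeq2 1.42.0 size factors, total counts with and without Gm26917, a prior of 2 reads, at least 1 or 50 reads, a log2 threshold of 2 and thinned counts, and for the sort test also the DESeq2 Wald test and all 6 libraries.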

Additional observations from a re-analysis of the deposited data

Results flagged for a closer look

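Timd4 stood on opposite sides of 0 in 2 pairs of contrasts, which share their 4 sorted libraries. Its BLM-over-sham log2 ratio was 1.24 in Lamp1-enriched and -1.66 in Lamp1-depleted cells, a difference (depleted minus enriched) of -2.91. Its Lamp1-enriched over Lamp1-depleted ratio was -1.26 in sham and 1.66 in BLM, a difference (BLM minus sham) of 2.92. Both rest on 22 and 9 reads in sham and 3 and 26 reads in BLM for the depleted and enriched libraries, and neither difference was tested.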

How the results depend on the processing

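The sort test compared fractions within treatment through its treatment term, which pairs 1 enriched with 1 depleted library per treatment. No finer pairing was possible, as each condition had 1 library and the labels carry no replicate numbers. With 1 library per condition no library could be left out. Percentages in brackets below are the shares of all genes called under the same setting. Of the 10 genes, 3 were higher in unsorted BLM cells with total counts only (10.7%) and 3 at a log2 threshold of 2 (4.96%). Cd36 was the 1 gene lower with total counts only (22.3%) and with total counts outside Gm26917 (20.1%). In Lamp1-enriched cells 1 was higher at a log2 threshold of 2 (3.59%). In Lamp1-depleted cells 1 was higher with total counts only (6.79%) and 0 at a log2 threshold of 2 (5.36%). There 1 was lower with at least 50 reads (19.3%) and 0 at a log2 threshold of 2 (7.65%). For the sort in sham, 1 was lower with at least 50 reads (23.6%) and 1 at a log2 threshold of 2 (12.6%). For the sort in BLM, 0 were lower with total counts only (15.8%), at least 50 reads (19.1%) or thinned counts (23.9%). At a log2 threshold of 2, 0 were lower (12.0%) and 4 higher (19.2%). In sham, unsorted cells were at least 2-fold above the higher fraction for 2 genes with either total, as Axl joined Timd4. The shares of all genes were 9.14% with total counts only and 9.09% outside Gm26917. At a log2 threshold of 2 there were 0 in sham (2.35%) and 2 in BLM (3.35%). Total counts moved the median of all genes by -0.26 in BLM over sham unsorted, by -0.72 in Lamp1-depleted cells and by 0.56 for the sort in BLM. The sort test called the same 6 genes under its alternatives, and the fold change of Timd4, -0.01 as reported, was 0.27 with total counts only, 0.082 with at least 1 read, 0.020 over all 6 libraries and 0.066 in the DESeq2 Wald test, none past the threshold. Levels of 3 reads or fewer were at the floor, which Timd4 reached in BLM Lamp1-depleted cells.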
